A study of Mus musculus with 6 samples.

Results

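The genes described here store, carry, convert and break down retinoids, the vitamin A compounds, in the liver. They are 9 of the 25403 genes listed in a liver RNA sequencing table: the retinol dehydrogenase genes *Rdh16f2*, *Rdh16*, *Rdh11* and *Rdh10*, the ester-forming enzyme gene *Lrat*, the plasma carrier gene *Rbp4*, the retinal oxidizing enzyme gene *Aldh1a1*, the retinoic acid degrading enzyme gene *Cyp26a1* and the carotene cleaving enzyme gene *Bco1*. *Rdh16f2* was chosen by its normalized counts, which were low and close to each other in all livers labelled *Themis*-KO. Its own values, their spread included, are therefore a description without a test. The other 8 were chosen as retinoid enzymes and carriers. All 9 had enough counts to be tested.

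Poly(A) RNA was sequenced from the livers of 3 wild-type C57BL6/J mice (WT) and 3 mice with *Themis* inactivated in the whole body (*Themis*-KO), to ask how loss of THEMIS, a T cell signaling protein, changes gene expression. All 6 mice received the MASH diet, which produces metabolic dysfunction-associated steatohepatitis, from an age of 10 to 12 weeks for 3 months. The diet held 40% of energy as fat, 20% as fructose and 2% cholesterol. No chow-fed liver was compared here, so every value is that of a liver on the MASH diet, and loss of the gene in all tissues does not separate hepatocytes from T cells or other cells.

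Retinol that reaches the liver is esterified with fatty acids and kept in lipid droplets of hepatic stellate cells, the main vitamin A store of the body. Hepatocytes release it again bound to RBP4, which travels in plasma with transthyretin. Inside cells retinol dehydrogenases make retinal reversibly, retinal dehydrogenases oxidize it irreversibly to retinoic acid, the ligand of the nuclear receptors RAR, and CYP26 enzymes clear the acid.

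Gene counts summed to between 20679642 and 25649767 per liver. Levels are given as CPM, the count of a gene scaled to the size of its library, always in the order of replicates 1, 2 and 3. *Themis* itself did not separate the labels: its CPM came to 8.07, 25.6 and 12.0 in livers labelled WT and 8.63, 7.74 and 9.97 in livers labelled *Themis*-KO (log2 fold change -0.79, SE 0.38, adjusted p = 0.199 by edgeR's quasi-likelihood test). The groups are therefore named by their labels only, and every direction rests on those. WT replicates 1 and 2 stood apart in a mitochondrial sequence type: of the counts of *mt-Nd3* and its near-identical copy *Gm28438*, the copy took 96.6% and 96.8% in them and 2.20% to 3.26% in the other 4 livers. Hepatocyte markers had a summed CPM of 61356 to 69677 in livers labelled WT and 55202 to 56073 in livers labelled *Themis*-KO, with 0 of 11 called by edgeR. Markers of activated stellate cells and of macrophages were called higher for 5 of 7 and 3 of 9, where 4.97% of all genes were. Of the hepatocyte markers, 4 had an unadjusted p under 0.05, and DESeq2 called 4. In whole tissue, fewer cells of a type and less RNA per cell cannot be told apart. The labels do not say whether anything but the genotype differed between the mice, and p-values measure the spread between these livers.

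*Rdh16f2* and *Rdh16* lie near each other, with *Rdh19* between them, in a cluster of related dehydrogenase genes on chromosome 10 of GRCm38. *Rdh16f2* (ENSMUSG00000074639) lies on the forward strand from 127866474 to 127877317, and *Rdh16* (ENSMUSG00000069456) on the same strand from 127801152 to 127846565. In GENCODE vM21 their coding sequences, of 957 and 954 bases, were 91.5% identical. The stretch of 60 bases in which they differed most, coding bases 15 to 74 counted from the A of the start codon, is shown to let the pair be compared, with the 12 bases that differ in capitals:
Rdh16f2 coding bases 15 to 74: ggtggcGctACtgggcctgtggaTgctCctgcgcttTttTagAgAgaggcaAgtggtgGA
Rdh16 coding bases 15 to 74: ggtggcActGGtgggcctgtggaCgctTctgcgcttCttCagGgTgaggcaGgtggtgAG
In the most alike stretch, coding bases 275 to 334, 1 of 60 bases differed. Of all stretches of 75 bases in the *Rdh16f2* transcript, 15 of 1191 (1.26%) also occurred exactly in another gene (*Rdh1*, *Rdh16f1* or *Rdh19*), and of those in the longer *Rdh16* transcript 296 of 3133 (9.45%) did. Reads from those stretches were divided among genes by estimation, so a small part of both values depends on their relatives.

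The 250 bases before the start of each gene, from RefSeq (GRCm38.p6), are shown for the same pair because the genes are close relatives. The capitals mark AGGTCA, the core motif that retinoid and related nuclear receptors bind, TATAAA, and TTCNNNGAA, a STAT motif, each searched on both strands:
Rdh16f2 at chr10:127866226-127866475, forward strand: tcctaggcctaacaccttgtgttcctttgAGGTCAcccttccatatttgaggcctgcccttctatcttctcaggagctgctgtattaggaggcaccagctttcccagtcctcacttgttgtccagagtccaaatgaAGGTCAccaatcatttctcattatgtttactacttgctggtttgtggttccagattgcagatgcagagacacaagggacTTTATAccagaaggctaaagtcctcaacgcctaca
Rdh16 at chr10:127800903-127801152, forward strand: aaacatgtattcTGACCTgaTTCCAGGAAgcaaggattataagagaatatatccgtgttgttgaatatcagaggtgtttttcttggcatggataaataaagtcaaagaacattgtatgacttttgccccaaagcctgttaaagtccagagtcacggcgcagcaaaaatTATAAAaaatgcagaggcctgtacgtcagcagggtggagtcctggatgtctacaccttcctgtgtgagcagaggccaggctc
*Rdh16f2* had AGGTCA at bases 221 to 216 and 114 to 109 before the start and TATAAA on the reverse strand at 35 to 30. *Rdh16* had AGGTCA on the reverse strand at 238 to 233, the STAT motif at 230 to 222 and TATAAA at 82 to 77. These letters are common: of 27025 promoters of this length, 13.8% held AGGTCA, 13.0% held TATAAA and 7.18% held the STAT motif. A match of letters does not show that a factor binds there.

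*Rdh16f2* was lower in every liver labelled *Themis*-KO, with a narrow spread, and both traits are those it was chosen for. Its CPM was 25.7, 20.3 and 22.2 in livers labelled WT and 9.43, 10.1 and 10.2 in livers labelled *Themis*-KO. The groups were far apart, and the mean in livers labelled *Themis*-KO (9.93 ± 0.436, SD, n = 3) was 43.6% of that in livers labelled WT (22.8 ± 2.71, SD, n = 3). The log2 fold change of -1.20 (SE 0.12) is given as the value that chose the gene. It lay between -1.27 and -1.10 when any 1 liver was left out. That narrow range follows from the choice of the gene and lends the fall no support. The counts behind it ran from 217 to 563 per liver.

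*Rdh16*, whose enzyme oxidizes retinol and also steroid alcohols, was more abundant and did not share this pattern in full. Its CPM was 142, 211 and 185 in livers labelled WT and 126, 117 and 184 in livers labelled *Themis*-KO. The first pair of livers labelled *Themis*-KO lay below every liver labelled WT, while *Themis*-KO replicate 3 lay among them, and the difference did not pass the test (log2 fold change -0.33, SE 0.20, 95% interval -0.80 to 0.14, adjusted p = 0.300 by edgeR's quasi-likelihood test). The ratio of *Rdh16* to *Rdh16f2* counts was 5.52, 10.4 and 8.35 in livers labelled WT. In livers labelled *Themis*-KO it was 13.4, 11.6 and 18.0. As *Rdh16f2* was chosen for its fall, a higher ratio there follows largely from that choice and is a description.

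The other genes of the cluster, named for their position after their values were seen, are also shown in the plot of the cluster. *Rdh9*, upstream of *Rdh16*, had overlapping groups (log2 fold change -0.28, SE 0.22, adjusted p = 0.404), and its CPM was 141 in WT replicate 2 against 77.0 to 84.9 in the other 5 livers. Its coding sequence was 96.3% identical to that of *Rdh16*, and it overlaps *Rdh16f1* in the annotation, so its counts are less certain. *Rdh7*, on the reverse strand and 6710 bases beyond the end of *Rdh16f2*, was the most abundant, with a CPM of 829, 907 and 725 in livers labelled WT and 632, 592 and 675 in livers labelled *Themis*-KO. Its groups did not overlap, but its log2 fold change of -0.37 (SE 0.11) had an adjusted p of 0.0706. *Hsd17b6*, at the far end, had a log2 fold change in the opposite direction (0.33, SE 0.16, adjusted p = 0.203). *Rdh1*, *Rdh16f1* and *Rdh19* had at most 13 counts in any liver and were not tested. Livers labelled *Themis*-KO stood between 41.5% and 45.0% of the WT mean for *Rdh16f2*. For the nearest tested genes on either side, *Rdh16* and *Rdh7*, they stood between 65.3% and 103% and between 72.2% and 82.2%. As *Rdh16f2* was chosen for its fall, its distance from these neighbors is a description and no contrast to them.

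**Figure D1:**
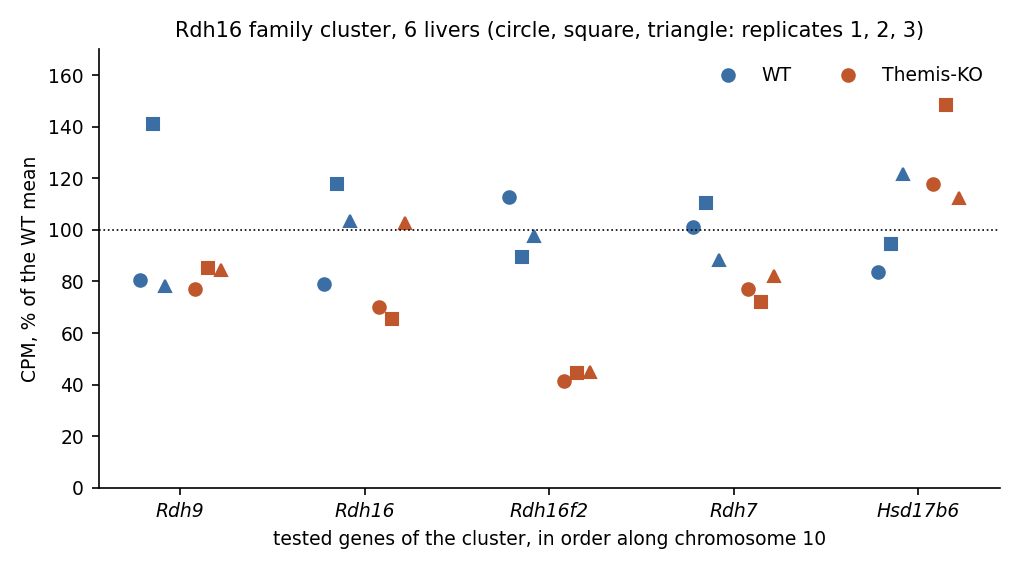
CPM of the 5 tested genes of the Rdh16 cluster as a percentage of the mean of livers labelled WT (vertical axis), in their order along chromosome 10 (horizontal axis), with 1 point per liver, blue for WT, orange for Themis-KO and the marker shape for the replicate number. The Themis-KO points of Rdh16f2, which was chosen for its fall, lie between 41.5% and 45.0%, while those of Hsd17b6 lie above 100%.

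The other retinol and retinal converting enzymes of the group did not pass the test. *Rdh11* (ENSMUSG00000066441, chromosome 12, 79174337 to 79192293, reverse strand), which reduces retinal back to retinol, had a CPM of 23.6, 24.7 and 30.6 in livers labelled WT and 19.8, 18.2 and 28.0 in livers labelled *Themis*-KO. As for *Rdh16*, *Themis*-KO replicates 1 and 2 lay below every liver labelled WT and replicate 3 did not (log2 fold change -0.26, SE 0.18, 95% interval -0.68 to 0.15, adjusted p = 0.354). *Rdh10* (ENSMUSG00000025921, chromosome 1, 16105774 to 16133734, forward strand), which makes retinal for retinoic acid synthesis, had 30.5, 27.7 and 32.1 CPM in livers labelled WT and 29.2, 29.0 and 24.6 in livers labelled *Themis*-KO. Here replicate 3 was the low liver, and the interval of the log2 difference was narrow, from -0.37 to 0.12 (log2 fold change -0.13, SE 0.10, adjusted p = 0.437). The coding sequences of both were distant from that of *Rdh16f2*, with 49.8% and 48.4% identity, and no stretch of 75 bases of either was shared with another gene.

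*Rbp4* was the one gene of the 8 that passed the test. It encodes the protein that carries retinol from the liver into plasma and lies on chromosome 19 from 38116629 to 38125281, on the reverse strand (ENSMUSG00000024990). Its CPM was 2496, 2526 and 2244 in livers labelled WT and 1740, 1671 and 1912 in livers labelled *Themis*-KO. Every liver labelled *Themis*-KO lay below every liver labelled WT, at 73.3% of the WT mean (log2 fold change -0.45, SE 0.10, 95% interval -0.69 to -0.21, adjusted p = 0.0405 by edgeR's quasi-likelihood test). Over all 14496 genes tested, 9.11% were called, 4.97% higher and 4.14% lower, and 1 of 8 is near that share.

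The call of *Rbp4* depended on the livers and the design. The log2 fold change stayed between -0.52 and -0.41 when any 1 liver was left out, but the adjusted p was 0.138 without WT replicate 1, 0.116 without WT replicate 2, 0.157 without *Themis*-KO replicate 1 and 0.158 without *Themis*-KO replicate 2. With the replicate number as a block it was 0.136, and with the mitochondrial sequence type as a covariate, chosen after the data were seen, the log2 fold change was -0.34 (adjusted p = 0.465).

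*Ttr*, the partner of RBP4 in plasma, was set beside it for that role after its values were seen. It had 3040, 3460 and 2977 CPM in livers labelled WT and 2568, 2358 and 2917 in livers labelled *Themis*-KO (log2 fold change -0.27, SE 0.12, adjusted p = 0.166). The ratio of *Rbp4* to *Ttr* counts ran from 0.730 to 0.821 in livers labelled WT and from 0.655 to 0.709 in livers labelled *Themis*-KO. Measured against the mean log2 CPM of the 11 hepatocyte markers in the same liver, *Rbp4* stood at 0.022, 0.28 and 0.016 in livers labelled WT and at -0.16, -0.26 and 0.11 in livers labelled *Themis*-KO, so that the groups overlapped. *Rdh16f2* measured the same way stood at -6.58, -6.67 and -6.64 against -7.68, -7.61 and -7.43, without overlap. As that gene was chosen for its fall, its gap is a description and no contrast to *Rbp4*. The part of the hepatocyte share in either difference was not tested.

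**Figure D2:**
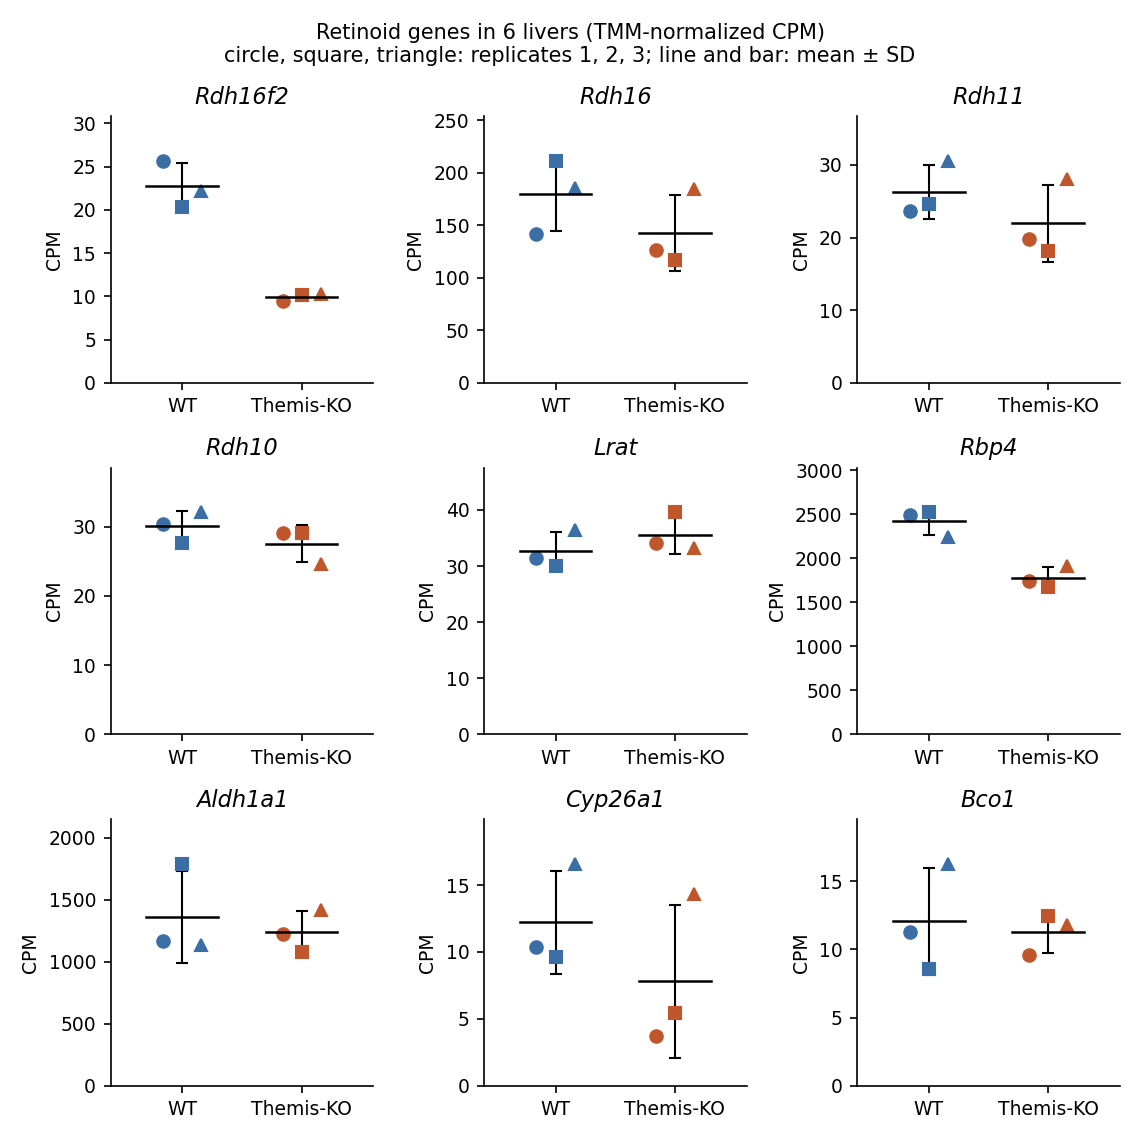
TMM-normalized CPM (vertical axes, from 0) of the 9 retinoid genes in the 3 livers labelled WT (blue) and the 3 labelled Themis-KO (orange), with the mean as a line, the SD as a bar and the marker shape for the replicate number. The groups are apart for Rdh16f2 and Rbp4 and overlap for the other 7 genes.

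*Lrat*, whose enzyme forms retinyl esters and is made in stellate cells, was at a similar level under both labels. The gene (ENSMUSG00000028003) lies on chromosome 3 from 82892579 to 82903973, on the reverse strand. Its CPM was 31.5, 30.0 and 36.5 in livers labelled WT and 34.0, 39.6 and 33.2 in livers labelled *Themis*-KO. The groups overlapped, and the interval of the log2 difference ran from -0.13 to 0.38 (log2 fold change 0.12, SE 0.11, adjusted p = 0.476). It was the only one of the 9 with a positive log2 fold change.

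Of 15 other genes that mark stellate cells 3 rose, where 4.97% of all genes did, namely *Pdgfrb*, a growth factor receptor (log2 fold change 0.80, adjusted p = 0.0386), *Cygb*, a globin of quiescent stellate cells (0.47, adjusted p = 0.0398), and *Dcn*, a matrix proteoglycan (0.39, adjusted p = 0.0423). The median over the 15 was 0.22, against 0.0095 over all genes tested. Of 7 markers of activated stellate cells 5 rose, with a median of 1.00, among them *Col1a1* (1.15, adjusted p = 0.0248) and *Timp1* (1.80, adjusted p = 0.0386).

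Within a liver, log2 CPM of *Lrat* exceeded the mean of the 15 stellate markers by 1.06, 0.95 and 1.22 in livers labelled WT and by 0.92, 1.21 and 0.78 in livers labelled *Themis*-KO. The difference of -0.10 did not exceed the variation among livers (p = 0.4 in an exact permutation test, two-sided, which with 3 livers a group cannot go below 0.1). Against the mean of the activated markers, *Lrat* stood at 1.92, 2.07 and 1.98 in livers labelled WT. In livers labelled *Themis*-KO it stood at 0.74, 1.08 and 1.40, without overlap. The mean of the activated markers was itself higher by 1.04 log2 units under that label. The gap therefore mostly restates the rise of those markers and is no result on *Lrat*. *Themis*-KO replicate 3 had the highest mean of the stellate markers (4.27 log2 CPM) and, of the livers labelled *Themis*-KO, the lowest mean of the activated markers (3.66 log2 CPM).

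**Figure D3:**
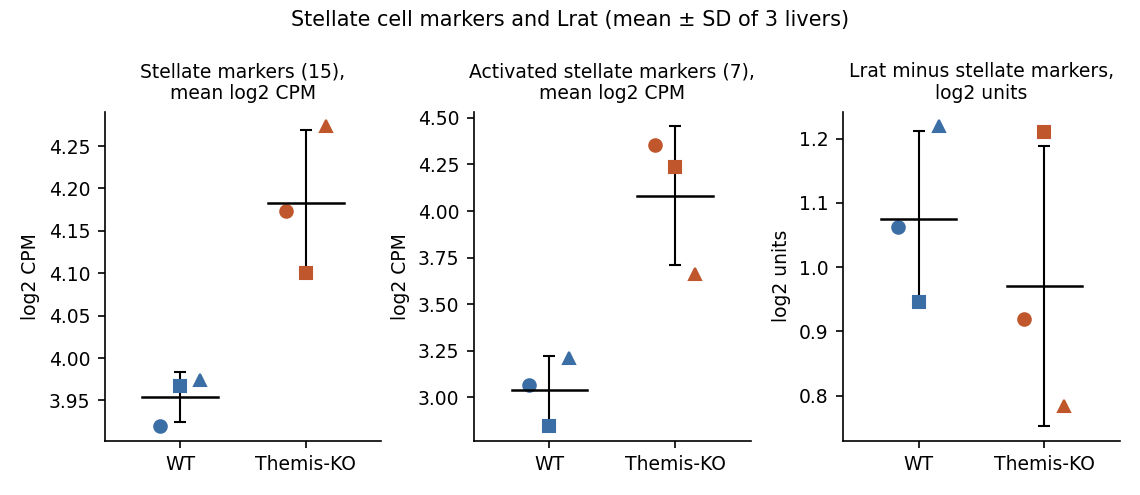
Mean log2 CPM of 15 stellate markers (left) and 7 activated stellate markers (middle), and log2 CPM of Lrat minus the stellate mean (right), per liver, with the group mean as a line and the SD as a bar. Both marker means are higher in all 3 livers labelled Themis-KO, and the groups overlap for Lrat against the stellate markers, from 0.95 to 1.22 and from 0.78 to 1.21.

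*Aldh1a1*, which oxidizes retinal to retinoic acid and is abundant in hepatocytes, had overlapping groups. The gene (ENSMUSG00000053279) lies on chromosome 19 from 20492715 to 20643465, on the forward strand. Its CPM was 1167, 1791 and 1131 in livers labelled WT and 1219, 1080 and 1418 in livers labelled *Themis*-KO, with WT replicate 2 above all others. The log2 fold change was -0.14 (SE 0.19, 95% interval -0.59 to 0.31, adjusted p = 0.659), and without WT replicate 2 it was 0.11. Of the stretches of 75 bases in its transcript, 2.19% also occurred in its relative *Aldh1a7*.

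*Cyp26a1*, which breaks down retinoic acid and is a textbook target of the retinoic acid receptors, was the most variable of the 9 in livers labelled *Themis*-KO. The gene (ENSMUSG00000024987) lies on chromosome 19 from 37697798 to 37701536, on the forward strand. The 250 bases before its start are shown because they hold a direct repeat of receptor core motifs. The repeat is in capitals and has a spacing that dimers containing RAR bind:
Cyp26a1 at chr19:37697558-37697807, forward strand: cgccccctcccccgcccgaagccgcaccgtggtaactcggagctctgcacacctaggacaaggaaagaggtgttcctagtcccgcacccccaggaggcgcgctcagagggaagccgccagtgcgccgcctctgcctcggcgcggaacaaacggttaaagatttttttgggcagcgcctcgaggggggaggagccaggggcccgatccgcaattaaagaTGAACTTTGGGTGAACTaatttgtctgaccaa
On the reverse strand, the motif AGTTCA covers bases 32 to 27 and 21 to 16 before the start. The search took any pair of the core AGGTCA and its variants in this spacing, namely AGTTCA as printed here, then GGGTCA as another, and finally GGTTCA. Such a pair occurred in 24 of 27025 promoters (0.0888%), and among the 8 retinoid genes with a promoter in the RefSeq table in *Cyp26a1* alone. *Rdh10* had no entry.

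The CPM of *Cyp26a1* was 10.4, 9.65 and 16.6 in livers labelled WT and 3.70, 5.42 and 14.4 in livers labelled *Themis*-KO. *Themis*-KO replicates 1 and 2 lay below every liver labelled WT, and *Themis*-KO replicate 3 lay above a pair of them. The test gave a log2 fold change of -0.65 (SE 0.47, 95% interval -1.74 to 0.43, adjusted p = 0.372), an interval that holds both no difference and a large one. The counts ran from 87 to 421 per liver. The coefficient of variation was 31.4% in livers labelled WT and 73.1% in livers labelled *Themis*-KO.

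*Bco1*, whose enzyme cleaves beta-carotene to retinal, did not differ beyond its spread. The gene (ENSMUSG00000031845, chromosome 8, 117095854 to 117133720, forward strand) had 11.3, 8.59 and 16.3 CPM in livers labelled WT and 9.56, 12.4 and 11.8 in livers labelled *Themis*-KO. All 3 livers labelled *Themis*-KO fell inside the range of livers labelled WT (log2 fold change -0.10, SE 0.23, 95% interval -0.64 to 0.43, adjusted p = 0.789). Without WT replicate 3, its highest liver, the log2 fold change was 0.18. *Bco2*, which cleaves carotenoids in mitochondria and was named for that role after its values were seen, had 26.1, 25.9 and 19.1 CPM against 10.7, 10.2 and 17.9 (log2 fold change -0.87, SE 0.23, adjusted p = 0.0561).

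Across the 8 genes other than *Rdh16f2*, 7 log2 fold changes were negative (4 under scaling by total counts alone, where *Rdh10*, *Aldh1a1* and *Bco1* turned positive), with a median of -0.20 beside 0.0095 over all genes tested. The groups did not overlap for 1 of the 8, *Rbp4*. Over all genes tested 34.6% did not overlap, with livers labelled *Themis*-KO higher for 17.7% and lower for 16.9%. *Rdh16*, *Rdh11* and *Cyp26a1* shared another pattern, with *Themis*-KO replicates 1 and 2 below every liver labelled WT and replicate 3 not. It was noticed in the values, and 12.6% of all genes tested had it. Without *Themis*-KO replicate 3, 4 of the 8 were called lower, namely *Rdh16* (log2 fold change -0.58, adjusted p = 0.0369), *Rdh11* (-0.49, adjusted p = 0.0300), *Rbp4* (-0.52, adjusted p = 0.0125) and *Cyp26a1* (-1.44, adjusted p = 0.0112), and in that fit 28.8% of all genes were called, 13.8% lower. Leaving out another liver brought these differences down to as little as -0.20 for *Rdh16* (without WT replicate 2), -0.14 for *Rdh11* (without WT replicate 3) and -0.31 for *Cyp26a1* (without *Themis*-KO replicate 1), none of them called.

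**Figure D4:**
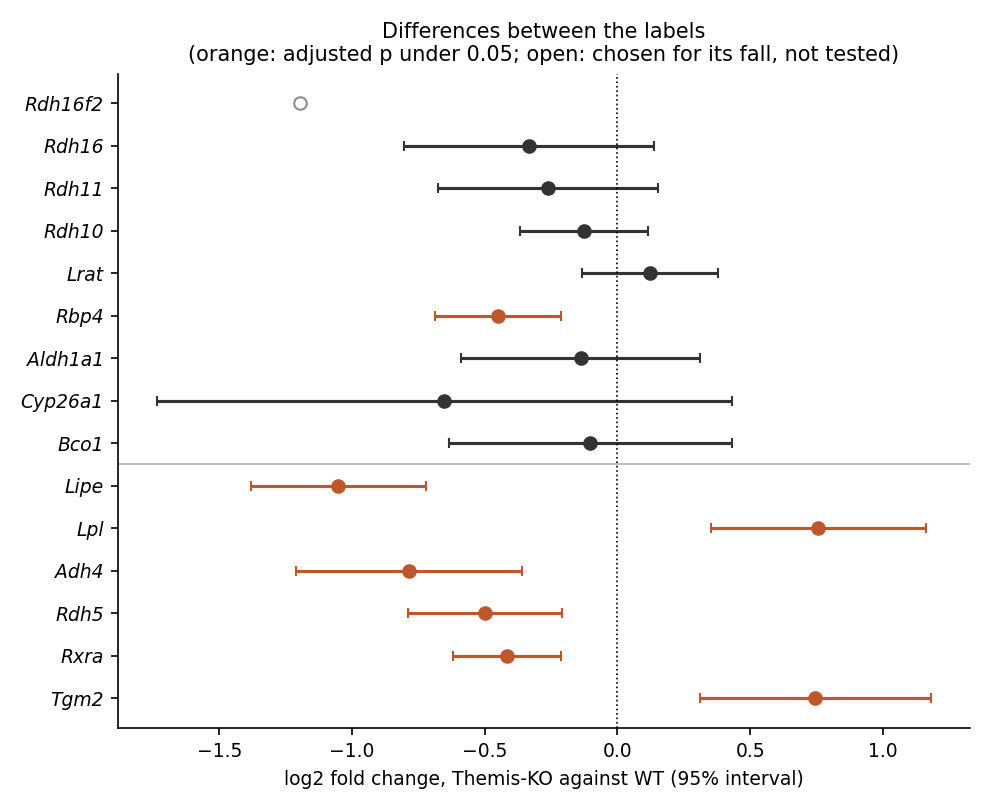
Log2 fold change of livers labelled Themis-KO against WT (horizontal axis) for the 9 retinoid genes (above the line) and the 6 other genes of retinoid handling and response that were called (below it), with 95% intervals, orange where the adjusted p was under 0.05. Rdh16f2, the open point at -1.20, was chosen for its fall and has no interval, and of the other 8 only the interval of Rbp4, from -0.69 to -0.21, leaves out 0.

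Levels can be compared between genes per length of transcript. In livers labelled WT, *Rbp4* led with 2086 CPM per kb, followed by *Aldh1a1* with 578, *Rdh16* with 56.0 and *Rdh16f2* with 18.0, each above the next in every liver. *Rdh10* (8.39), *Rdh11* (8.06), *Cyp26a1* (6.82), *Lrat* (6.11) and *Bco1* (5.16) came after, and neighbors in this order overlapped. In livers labelled *Themis*-KO the first 3 kept their places with 1528, 525 and 44.5 CPM per kb, while *Rdh16f2*, at 7.85, overlapped *Rdh10*, at 7.69. *Cyp26a1* came last there with 4.37, and its range overlapped that of *Bco1* at 4.82.

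**Figure D5:**
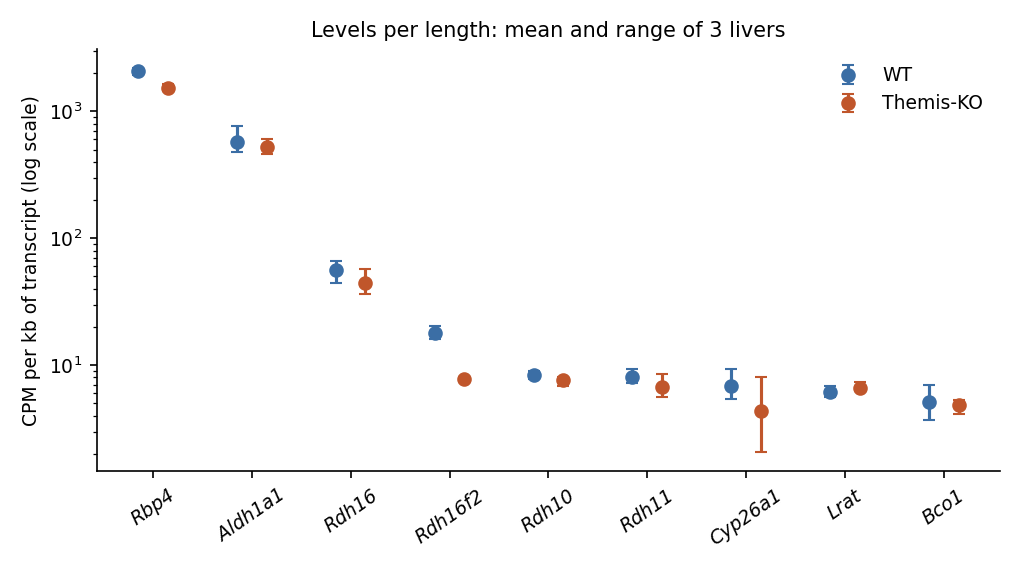
CPM per kb of transcript (vertical axis, log scale) of the 9 genes, in the order of their level in livers labelled WT (blue), beside livers labelled Themis-KO (orange), as the mean of 3 livers with a bar from the lowest to the highest. Rdh16f2 stands above Rdh10 in livers labelled WT and level with it in livers labelled Themis-KO.

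Beyond the 9 genes, 49 other genes of retinoid handling were listed by role, of which 47 were in the table and 37 were tested. At an adjusted p under 0.05, 1 rose and 4 fell, or 13.5% of those tested against 9.11% of all genes, and 32 were not called. Their median log2 fold change was -0.17, with 14 positive and 23 negative. All 5 calls were lost with the replicate number as a block, and likewise when replicate 1 or 2 of either label was left out. Scaling by total counts alone ended the calls of *Rdh5* and *Rxra*.

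Genes of retinyl ester turnover moved both ways. *Lipe*, hormone-sensitive lipase, which also hydrolyzes retinyl esters, had a CPM of 37.7, 37.3 and 29.6 in livers labelled WT and 16.7, 14.4 and 19.4 in livers labelled *Themis*-KO (log2 fold change -1.05, SE 0.14, adjusted p = 0.0131). *Lpl*, lipoprotein lipase, had 57.6, 43.1 and 64.6 CPM against 96.1, 107 and 76.1 (log2 fold change 0.76, SE 0.18, adjusted p = 0.0412). Both were without overlap. Defining adipocyte genes were near 0, with *Adipoq* and *Plin1* at most at 0.079 CPM, while *Cfd*, another adipocyte gene, fell by 4.10 on the log2 scale. The other 3 genes of ester turnover (*Dgat1*, *Pnpla2* and *Pnpla3*) were not called.

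Of the 13 tested genes listed as enzymes that act on retinol or retinal 2 fell, where 4.14% of all genes did. *Adh4*, an alcohol dehydrogenase that oxidizes retinol, had 48.8, 66.7 and 43.1 CPM in livers labelled WT and 28.7, 26.7 and 36.6 in livers labelled *Themis*-KO (log2 fold change -0.78, SE 0.18, adjusted p = 0.0418). *Rdh5*, the 11-cis retinol dehydrogenase known from the eye, had 12.7, 11.3 and 12.5 CPM against 7.82, 9.55 and 8.45 (log2 fold change -0.50, SE 0.12, adjusted p = 0.0478). The groups were apart for both. They were apart, with livers labelled *Themis*-KO lower, for 6 of the 13, beside 16.9% of all genes tested. *Adh1*, the abundant liver alcohol dehydrogenase, was not called, with a log2 fold change of 0.043 (adjusted p = 0.873).

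None of the 5 tested carriers and uptake genes was called, none of the 5 genes of retinal oxidation and none of the 3 of acid clearance and carotenoid cleavage. These counts of 0 come from edgeR's test. At an unadjusted p under 0.05 there were 2, 3 and 1 such genes, and DESeq2 called 2, 2 and 1, among them *Scarb1*, *Aldh8a1*, *Aox3* and *Bco2*. *Scarb1*, a receptor that takes up carotenoids, had a log2 fold change of -0.35 (adjusted p = 0.0550), which did not pass edgeR's test.

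Of the 6 retinoid receptors tested 1 fell, where 4.14% of all genes did. It was *Rxra*, the common partner of RAR and many other nuclear receptors in hepatocytes. Its CPM was 465, 445 and 433 in livers labelled WT and 312, 343 and 353 in livers labelled *Themis*-KO, so that the groups were apart (log2 fold change -0.42, SE 0.09, adjusted p = 0.0351). Among 6 tested genes listed as retinoic acid targets 1 rose, where 4.97% of all genes did. It was *Tgm2*, a transglutaminase, with 232, 214 and 271 CPM against 449, 466 and 288 (log2 fold change 0.75, SE 0.19, adjusted p = 0.0491, but 0.126 under the replicate block). Among the other targets the log2 fold changes were -0.65 for *Cyp26a1*, -0.43 for *Dhrs3* and 0.20 for *Rarb*, none of which passed edgeR's test, while DESeq2 called *Dhrs3*. The ratio of *Cyp26a1* to *Rarb* counts ran from 2.26 to 3.90 in livers labelled WT and from 1.05 to 2.43 in livers labelled *Themis*-KO, with overlap.

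The genes most like *Rdh16f2* over the 6 livers, by the root-mean-square difference of log2 CPM centered on its mean, were sought among 13042 genes with a mean CPM of at least 1. They were *Mup22*, a major urinary protein gene (0.063 log2 units), *Serpina1d*, a protease inhibitor gene (0.11), *F7*, coagulation factor VII (0.11), *Hpd*, an enzyme of tyrosine breakdown (0.11), and *Lin7a* (0.12). The values of *Mup22* and *Serpina1d* are uncertain, because both have near-identical relatives with which they share reads. The CPM of *Hpd* was 1394, 1105 and 1020 in livers labelled WT and 426, 470 and 515 in livers labelled *Themis*-KO. Those most like *Lrat* were *St7l* (0.019), *Nod1* (0.041), *Washc4* (0.043), *Klhl18* (0.045) and *Slc35f6* (0.046), none of them in the lists of stellate markers. Likeness over 6 livers is a description and says nothing of shared function.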

How the data were processed

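Liver RNA of 3 WT and 3 *Themis*-KO mice was compared by the genotype labels. Per the submitters' processing notes, the tools were cutadapt 2.3, STAR 2.7.8a and RSEM 1.3.3 with the build GRCm38. The authors deposited RSEM's estimated count per gene and liver, not normalized and given as whole numbers. Where a read fits several genes RSEM splits it among them, which ties the values of close relatives together. Every column of the table was mapped to a sample, leaving 0 unmapped.

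Tests were run with edgeR 4.0.16 in R 4.3.3. The filter filterByExpr removed 10907 of 25403 genes, leaving 14496, and TMM, glmQLFit and glmQLFTest were used on all 6 livers without covariates, with Benjamini-Hochberg adjustment over the genes tested and a threshold of 0.05. CPM carry no prior count; log2 CPM of single livers carry a prior count of 2. Any pair of libraries differed by more than sampling noise (lowest chi-square per degree of freedom 9.12). Coordinates, lengths and coding sequences came from GENCODE vM21, in which 25321 gene IDs were found, and promoters from RefSeq. The length is that of 1 transcript per gene.

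The 9 genes and all lists were chosen with earlier results of these data known. Named were the 9 genes, every listed pathway or target gene called, and the 5 genes most like *Rdh16f2* and *Lrat*; the others named for their role or place were chosen after their values were seen. Some listed genes are not reported here by name. Alternatives were DESeq2 1.42.0, other scalings and filters, the replicate block and each liver left out. Figures were drawn with matplotlib 3.10.9.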

Additional observations from a re-analysis of the deposited data

How the results depend on the processing

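Of all genes tested, 721 rose and 600 fell under the *Themis*-KO label. Scaling by total counts alone gave 1449 and 387, and moved the median log2 fold change from 0.0095 to 0.15 and the share of higher genes among those called from 54.6% to 78.9%. Under that scaling *Rdh10* (0.013), *Aldh1a1* (0.0017) and *Bco1* (0.028) turned to the other side of 0, each with a value smaller than the shift of the median. No filter on low counts gave 1212 and 967 and 12 retinoid pathway genes called, in place of 5. DESeq2 gave 1273 and 1084, and 13 pathway genes. *Rbp4* was called under every scaling, filter and tool, with a log2 fold change from -0.31 under total counts alone to -0.46. The cause of these shifts was not tested.

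Deviations from the group means were not shared by same-numbered livers (correlations 0.00028, -0.24 and -0.16). With so few livers in a group, these correlations cannot decide whether the numbers pair the livers. With the replicate block 17 genes were higher and 45 lower, and 0 of the 8 retinoid genes and 0 pathway genes were called by edgeR (2 and 17 at an unadjusted p under 0.05). *Rbp4* had -0.45 with an adjusted p of 0.136.

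Leaving out 1 liver gave from 8 to 2228 genes higher and from 12 to 2039 lower, with the lowest counts without *Themis*-KO replicate 1 and the highest without *Themis*-KO replicate 3. The retinoid genes called ranged from 0 (without WT replicate 1 or 2 or *Themis*-KO replicate 1 or 2) to 4, with 1 without WT replicate 3, and the pathway genes from 0 to 17, with 3 without WT replicate 3. *Aldh1a1* ranged from -0.26 to 0.11 (the latter without WT replicate 2) and *Bco1* from -0.30 to 0.18 (the latter without WT replicate 3). *Lrat* against the stellate markers ranged from -0.22 to -0.011.

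With the mitochondrial sequence type as a covariate, chosen after the data were seen, which leaves 1 liver labelled WT within the shared type, 0 genes were higher and 3 lower, and 0 retinoid and 0 pathway genes were called by edgeR (1524, 2 and 3 at an unadjusted p under 0.05). *Lrat* then had -0.035, *Aldh1a1* 0.13 and *Rbp4* -0.34, while *Bco1* had -0.53, *Rdh11* -0.48, *Cyp26a1* -1.09 and *Rdh10* -0.22, each more than 1.5 times its value without the covariate. The smallest counts in a liver were 87 for *Cyp26a1* and 179 for *Bco1*.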

Other observations

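Markers of the hepatocyte zones, not described above, also differed between the labels. Of 10 pericentral markers 5 fell, with a median log2 fold change of -0.91, and of 8 periportal markers 3 fell, with a median of -0.39, where 4.14% of all genes fell. Of 7 liver genes known to be higher in males 6 fell, with a median of -1.37, while 0 of 3 tested female-biased genes were called by edgeR (1 by DESeq2 and 1 at an unadjusted p under 0.05). All 6 livers carried transcripts of the Y chromosome, with *Ddx3y* at 36.3 CPM or more and *Xist* at 0.378 CPM or less. The part of zonation or of the male-biased program in the values of *Rdh16f2*, *Rbp4* and the other retinoid genes was not tested.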
